A study of Mus musculus with 4 samples.

Results

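The genes described here are the clock repressors Per1, Per2, Per3, Cry1 and Cry2, together with Csnk1d and Csnk1e, which encode casein kinase 1 delta and epsilon. They were chosen by name as the negative arm of the circadian clock, with earlier results of these data known. All 7 were measured, each by a single row of the array that carried its symbol alone, among 19934 genes in all.

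The measurements come from whole kidneys of male C57BL6/N mice aged 12 weeks. Usp2-KO mice lack Usp2, a ubiquitin-specific protease, and were compared with wild-type (WT) littermates. Animals had been kept for 3 weeks under 12 h of light and 12 h of dark and were dissected at Zeitgeber time 12 (ZT12), counted in hours from lights on, when Usp2 expression is at its peak per the labels. RNA of 3 mice was mixed in each pool, with 2 pools per genotype, so that each value is an average over 3 animals and the spread between pools does not show the spread between animals. Littermates of 6 pairs were kept in step between pools, and pools with the same number were taken as the littermate pools. The labels do not say how the Usp2 allele was made, and the kidneys hold all cell types of the organ, so fewer cells of a type and less RNA per cell cannot be told apart.

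In the mammalian clock the activators CLOCK and BMAL1 (encoded by Arntl) bind E-box sequences and switch on the Per and Cry genes. PER and CRY proteins then assemble, enter the nucleus and block CLOCK and BMAL1, which closes the loop. Casein kinases 1 delta and epsilon phosphorylate PER, and this step together with ubiquitin ligases sets how long the repressors last. USP2 removes ubiquitin from proteins, and PER1 and CRY1 have been reported among its substrates. Per transcripts in peripheral tissues of the mouse are known to be high around the change from light to dark, and Cry1 to follow later in the night. The arrays report transcripts, not proteins or their stability.

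The DNA stretches below lie upstream of start sites of repressor genes. They are shown because they hold letter matches to elements of the kinds that clock proteins are known to bind. Whether these sites drive the genes was not tested. They are RefSeq sequences of build GRCm38.p6, written along the strand of the gene. Of the 7 genes, 5 (Per1, Per3, Cry1, Cry2 and Csnk1e) had promoter windows of 250 bases before to 50 after a start site, 9 windows in all. Capitals mark matches to the E-box CACGTG, to the E-prime box CACGTT, which reads AACGTG on the opposite strand, or to the D-box TTATGTAA. Both strands were searched. The D-box spelling TTACGTAA was searched as well and had no match in these windows. No marked match overlapped another.
Per1, chr11:69098737-69098836, plus strand: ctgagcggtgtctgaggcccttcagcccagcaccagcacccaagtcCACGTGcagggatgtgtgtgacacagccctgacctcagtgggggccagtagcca
Cry1, chr10:85185071-85185170, minus strand: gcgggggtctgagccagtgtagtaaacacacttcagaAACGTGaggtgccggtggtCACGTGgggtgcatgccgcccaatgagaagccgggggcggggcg
Cry2, chr2:92434182-92434281, minus strand: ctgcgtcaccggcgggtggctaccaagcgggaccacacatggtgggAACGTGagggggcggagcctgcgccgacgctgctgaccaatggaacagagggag
Per3, chr4:151044794-151044893, minus strand: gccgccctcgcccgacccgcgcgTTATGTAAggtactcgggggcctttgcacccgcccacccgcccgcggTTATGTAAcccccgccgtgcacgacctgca

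The E-box of Per1 began 166 bases before the start site, in the upstream window of the 2 that the table holds for this gene. Cry1 held an E-box at 60 bases and an E-prime box at 79 bases before its start, and Cry2 an E-prime box at 166 bases. Per3 held 2 copies of the D-box, at 205 and 158 bases before its start. Of the 32851 promoter windows of this length in the table, 7.15% held the E-box, 4.68% the E-prime box, 0.938% the D-box TTATGTAA and 0.119% the spelling TTACGTAA. None of the 4 windows of Csnk1e held any of these letters, which says only that they are not in these windows. The matches are a description of sequence and were not tested for binding.

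The Usp2-KO kidneys carried the labelled loss. Usp2 had log2 values of 11.63 and 11.71 in the WT pools and 7.65 and 7.60 in the Usp2-KO pools. The files name no exons for the deletion and hold no detection calls. The 4 arrays had medians between 7.44 and 7.46. Kidney markers were present, with proximal tubule genes at a summed log2 signal between 15.96 and 15.99 in all pools. Summed marker signals of other tissues and cell types differed between the genotypes or in single pools. The summed signal of 6 adrenal cortex genes was 8.71 to 8.73 in WT and 8.56 to 8.61 in Usp2-KO pools, and that of 5 pancreatic genes was 8.81 to 8.82 against 8.67 to 8.69. That of 5 blood cell genes was 10.04 to 10.19 against 9.95 to 9.98. The 5 adipocyte genes summed to 9.54 in Usp2-KO pool 1 and to between 9.88 and 9.89 in the other pools. Intercalated cell genes (4) summed to 11.11 to 11.15 in WT and 11.33 to 11.34 in Usp2-KO pools. Principal cell genes (4) summed to 12.07 to 12.09 against 12.19 to 12.27, and distal convoluted and connecting tubule genes (4) to 13.58 to 13.59 against 13.65 to 13.66. A sum weighs the strongest genes most. By single genes, 3 intercalated cell genes had a higher and 1 a lower Usp2-KO mean, and all 4 principal cell genes a higher one. Distal tubule genes split into 2 higher and 2 lower, blood cell genes into 2 and 3, and adipocyte genes into 1 and 4. All 6 adrenal and 5 pancreatic genes were lower. The values are background-corrected log2 signals with array minima between 2.37 and 2.55, so that none being at 0 does not show that a gene was expressed. The lowest single gene value was 4.215 in the adrenal list and 5.87 in the pancreatic list. The lower quartile of the arrays was 5.97 to 6.04, so some of these signals were low. No adrenal, pancreatic, blood cell, adipocyte or tubule marker had a limma adjusted p under 0.05. The part of these markers in the values below was not tested.

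At ZT12 no clock repressor or casein kinase 1 gene passed the test between Usp2-KO and WT kidney. The difference, Usp2-KO minus WT, lay between -0.10 for Per1 and 0.03 for Cry1 on the log2 scale, with a median of -0.03 over the 7 genes against -0.01 over all genes. By limma, 0 of 7 had an adjusted p under 0.05 (lowest 0.850), and 0 of 7 an unadjusted p under 0.05. Of all genes, 0.00502% passed the adjusted threshold, which was Usp2 alone, and 9.11% the unadjusted one. The 95% confidence intervals bound the difference of means at ZT12 under this fit. Of its 8.87 degrees of freedom, 6.87 came from the prior over all genes. The intervals do not cover other times of day or the spread between animals. The widest interval was that of Per1 and reached 1.28-fold lower. No interval of the other 6 genes reached beyond 1.20-fold in either direction. Only 1 of the 7 genes, Per2, had WT and Usp2-KO pools that did not overlap, where 38.9% of all genes did not overlap.

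**Figure D1:**
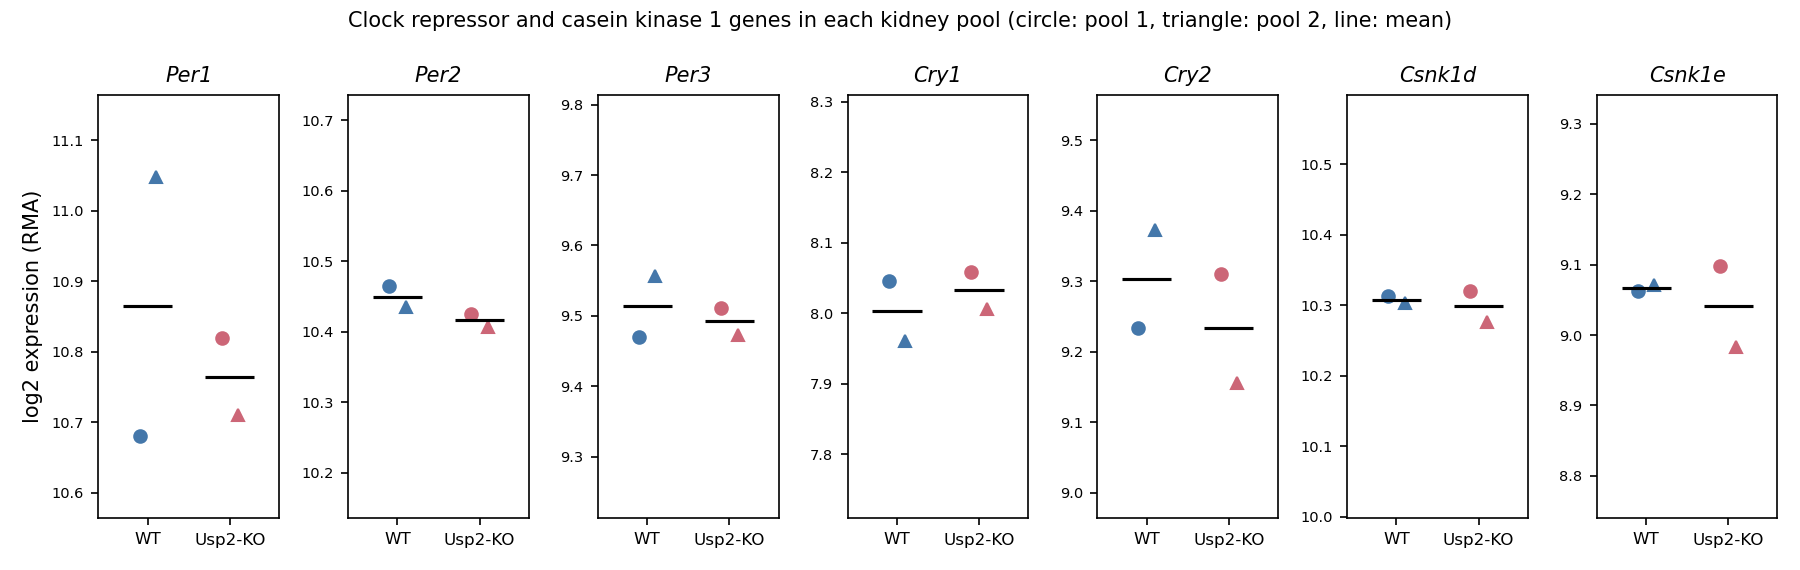
Log2 expression of the 7 genes in each kidney pool, with circles for pool 1, triangles for pool 2 and a line at the mean of each genotype. Every panel spans 0.6 on the log2 scale, levels of different genes cannot be compared, and the pools of the genotypes overlap in 6 of 7 panels.

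Per1, the PER gene known for its fast response to light and hormones, varied most. Its log2 values were 10.68 and 11.05 in the WT pools and 10.82 and 10.71 in the Usp2-KO pools. Both Usp2-KO values lay between the WT values, and WT pool 2 stood above the other 3 pools. The WT mean was 10.86 ± 0.26 (SD, n = 2 pools) and the Usp2-KO mean 10.76 ± 0.08 (SD, n = 2 pools), a difference of -0.10 (SE 0.11, 95% confidence interval -0.36 to 0.16, limma adjusted p = 0.850). The WT pools thus differed from each other by 0.37, more than the genotypes did. The littermate comparisons had opposite signs, 0.14 in pool 1 and -0.34 in pool 2. Without WT pool 2 the genotype difference was 0.08, and without WT pool 1 it was -0.28.

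Per2, the PER gene whose loss disrupts rhythms most, was the steadiest of the repressors. Its log2 values were 10.46 and 10.44 in the WT pools and 10.43 and 10.41 in the Usp2-KO pools. Both WT pools lay above both Usp2-KO pools, but by little. The difference was -0.03 (SE 0.07, interval -0.19 to 0.12, limma adjusted p = 0.927), and permuting the 2 pools against 2 in an exact two-sided test gave p = 0.333, the smallest possible in this design. The littermate comparisons were -0.04 and -0.03, and the range over all 4 pools, 0.06, was wider than that of 4.57% of genes.

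Per3, the PER gene least needed for rhythm, had log2 values of 9.47 and 9.56 in the WT pools and 9.51 and 9.47 in the Usp2-KO pools. As for Per1, the Usp2-KO values lay between those of the WT pools and WT pool 2 was highest. The difference was -0.02 (SE 0.07, interval -0.19 to 0.14, limma adjusted p = 0.957), and 0.02 without WT pool 2. The littermate pools differed by 0.04 and -0.08.

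Among the cryptochromes, Cry1, the stronger repressor of CLOCK and BMAL1, was the 1 gene of the 7 with a difference above 0. Its log2 values were 8.04 and 7.96 in the WT pools and 8.06 and 8.01 in the Usp2-KO pools, so that the groups overlapped and WT pool 2 was lowest. The difference was 0.03 (SE 0.07, interval -0.14 to 0.20, limma adjusted p = 0.936), with 0.01 and 0.05 in the littermate comparisons and -0.01 without WT pool 2. Cry2, the paralogue that also represses CLOCK and BMAL1, had 9.23 and 9.37 in the WT pools and 9.31 and 9.16 in the Usp2-KO pools. WT pool 2 was highest and Usp2-KO pool 2 lowest, and the groups overlapped. The difference was -0.07 (SE 0.09, interval -0.26 to 0.12, limma adjusted p = 0.859), and the littermate comparisons had opposite signs (0.08 and -0.22). It was 0.01 without Usp2-KO pool 2 and -0.14 without WT pool 1.

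The kinases that phosphorylate PER were close to level. Csnk1d, which encodes casein kinase 1 delta, had log2 values of 10.31 and 10.30 in the WT pools and 10.32 and 10.28 in the Usp2-KO pools, the narrowest range of the 7 genes (0.04). Its difference was -0.01 (SE 0.07, interval -0.17 to 0.15, limma adjusted p = 0.981). Csnk1e, which encodes casein kinase 1 epsilon, had 9.06 and 9.07 in the WT pools and 9.10 and 8.98 in the Usp2-KO pools. The Usp2-KO pools lay on either side of both WT pools. The difference was -0.03 (SE 0.07, interval -0.20 to 0.14, limma adjusted p = 0.947), and 0.03 without Usp2-KO pool 2.

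For 6 of the 7 genes, Per2 being the exception, the pools of at least 1 genotype differed from each other by more than the genotype means did, as for 73.4% of all genes. Of the 7 genes, 5 had littermate comparisons of opposite sign, against 47.8% of all genes. With the littermate pools as a block, 0 of the 7 passed (lowest limma adjusted p 0.901), where 0.768% of all genes did.

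The pools also differed from each other across the clock genes, a pattern examined after the values were seen and not tested. WT pool 2 exceeded WT pool 1 by 0.37 for Per1, and 98.7% of genes had a smaller difference between these pools. The gap was 0.14 for Cry2 and 0.09 for Per3, while Per2 was lower in WT pool 2 by -0.03. Some other genes known to be driven through E-boxes had differences of the same sign between the WT pools. Ciart, a repressor of CLOCK and BMAL1, was higher in WT pool 2 by 0.40, Nr1d1, which encodes the repressor REV-ERB alpha, by 0.29, and Dbp, a D-box activator, by 0.24. Others differed by less, as Nr1d2, Tef and Hlf were higher by only 0.02, 0.045 and 0.001. Bhlhe40, an E-box antagonist, was lower in WT pool 2, by -0.12. Cry1, which held an E-box match, was also lower, by -0.09. Further genes lower in WT pool 2 than in WT pool 1 included Arntl by -0.50, Nfil3, a D-box repressor, by -0.25, Clock by -0.25 and Rorb by -0.20. Csnk1d and Csnk1e differed by -0.01 and 0.01.

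Between the Usp2-KO pools, several of these differences had the opposite sign. Pool 2 was below pool 1 for Per1 (-0.11), Cry2 (-0.15), Per3 (-0.04), Ciart (-0.18), Nr1d1 (-0.17) and Dbp (-0.12), and Clock was above by 0.29. Arntl (-0.05), Nfil3 (-0.10) and Cry1 (-0.05) were lower in pool 2 of both genotypes. Differences between pools had opposite signs in the genotypes for 4 of the 7 genes and for 9 of the 14 other clock genes, which is near the 56.1% of all genes. Summed signals of urothelial and blood cell markers were also highest in WT pool 2, at 10.26 (9.87 to 10.03 in the other pools) and 10.19 (9.95 to 10.04). Their part in these differences was not tested.

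**Figure D2:**
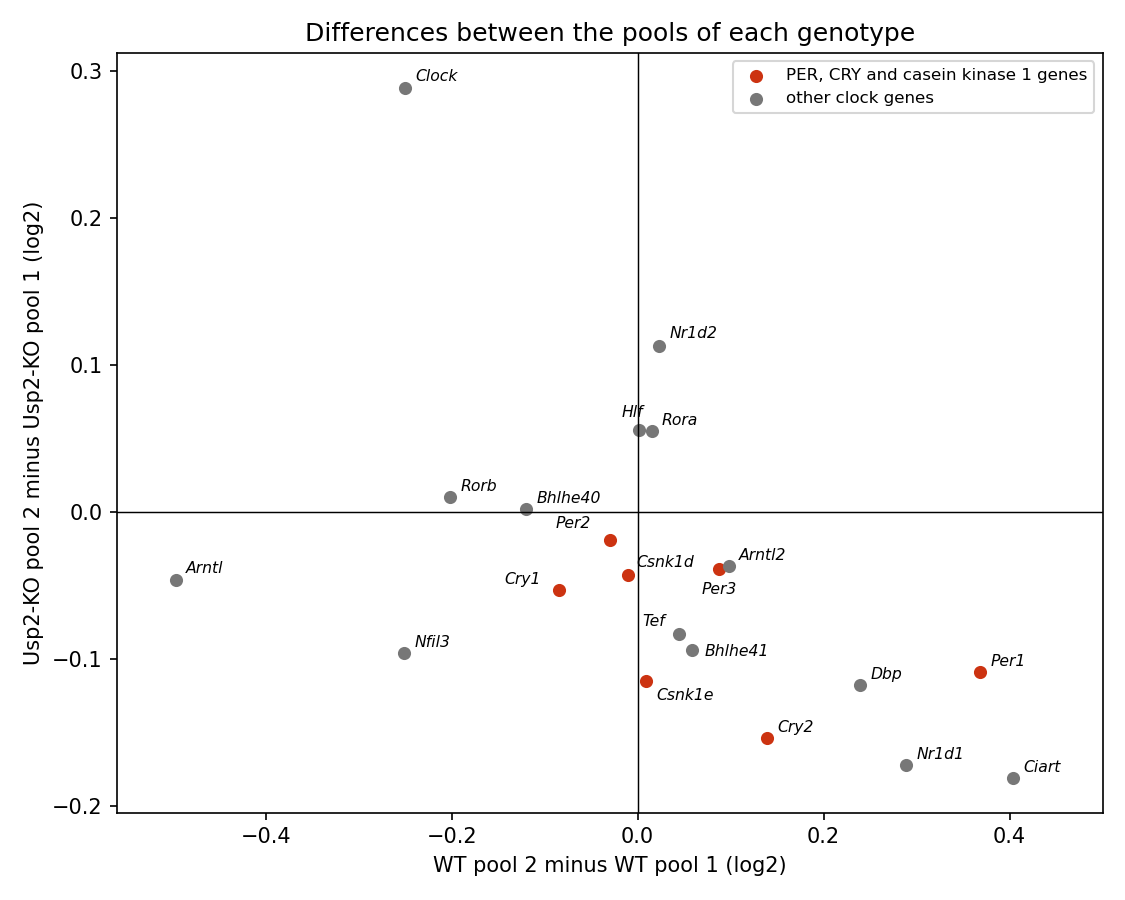
Difference between the pools of WT kidney (horizontal axis, log2) and of Usp2-KO kidney (vertical axis, log2) for the 7 genes, in red, and 14 other clock genes, in grey. Per1, Cry2, Dbp, Nr1d1 and Ciart lie to the lower right, at 0.37, 0.14, 0.24, 0.29 and 0.40 between the WT pools, and Clock lies to the upper left.

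By likeness of pattern, the genes nearest to Per1, which had the widest range of the 7, were Ctse, Spink10 and Mageb3. The measure was the root mean square difference between log2 values of the 4 arrays centred on the gene's mean, which was 0.01, 0.02 and 0.02. It was taken over 1419 genes whose range was at least that of Per1. With 4 arrays many genes come close by any measure. The log2 values of Spink10 (4.74 to 5.115) lay under the lower quartile of the arrays, 5.97 to 6.04. Those of Mageb3 were near it, from 6.03 to 6.44, and those of Ctse ran from 7.58 to 7.98.

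The genes around the repressors gave 0 calls as well. Of 46 measured genes in 7 related lists, 35 had a higher and 11 a lower mean in the Usp2-KO pools, where 52.5% of all genes were lower. The median difference was 0.05 against -0.01 over all genes. None passed the limma adjusted threshold, with or without the littermate block, and 4 had an unadjusted p under 0.05, a share near the 9.11% of all genes. The pools did not overlap for 23 of the 46, against 38.9% of all genes.

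Of the 6 measured clock activators and E-box antagonists, 2 were higher and 4 lower (median -0.02). Clock had log2 values of 9.18 and 8.93 in the WT pools and 9.21 and 9.50 in the Usp2-KO pools, so that the groups did not overlap, and a difference of 0.30 (SE 0.11, limma adjusted p = 0.475), which was 0.16 without Usp2-KO pool 2. Arntl had 7.63 and 7.13 in WT and 7.15 and 7.10 in Usp2-KO pools, where WT pool 1 alone was high. Its difference was -0.25, which was -0.005 without WT pool 1 and -0.50 without WT pool 2. That of its paralogue Arntl2 was -0.08. Of the 5 E-box driven output and loop genes 3 were higher and 2 lower (median 0.01), with -0.19 for Nr1d1, -0.09 for Dbp and 0.06 for Hlf, a D-box activator. Without WT pool 2, Nr1d1 was at -0.05 and Dbp at 0.03.

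The 3 ROR and D-box regulators were all above WT, with a median of 0.24. Rora, which encodes an activator of Arntl, had log2 values of 9.03 and 9.05 in the WT pools and 9.25 and 9.31 in the Usp2-KO pools. Both Usp2-KO pools lay above both WT pools, and the difference of 0.24 had the smallest p of the 46 genes (SE 0.07, unadjusted p = 0.00807, limma adjusted p = 0.374). Nfil3 had 7.48 and 7.23 in WT and 7.70 and 7.61 in Usp2-KO pools, again without overlap. Its difference was 0.30 (SE 0.09, limma adjusted p = 0.396), which was 0.17 without WT pool 2. Rorb differed by 0.08, and by -0.03 without WT pool 2.

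Ubiquitin ligases and proteases that act on PER and CRY were higher in 7 and lower in 2 of the 9 measured (median 0.06). Cul1, the scaffold of the SCF ligases, differed by 0.20 (SE 0.08, limma adjusted p = 0.505). Usp7, a protease that removes ubiquitin from CRY1, differed by 0.18, and Btrc, an F-box protein that recognises phosphorylated PER, by 0.13. In all 3, which were picked for the smallest p of the list, the WT and Usp2-KO pools did not overlap. Over the list this held for 4 of the 9, against 38.9% of all genes.

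Other kinases of PER and CRY were higher in 9 of 10 (median 0.07), where 52.5% of all genes were lower. Csnk1d and Csnk1e had the other sign, though none passed and the contrast was not tested. The sign of Csnk1d and Csnk1e rested on 1 pool, as Usp2-KO pool 2 was lowest for both. It was highest for 8 of the 10 other kinases. Without Usp2-KO pool 2, Csnk1d was at 0.01 and Csnk1e at 0.03, and the other kinases except Csnk1g1 (-0.02) were also above 0. Csnk1a1, which encodes casein kinase 1 alpha, and Csnk1g3, of the gamma class, each differed by 0.16, and Csnk2a1, a catalytic subunit of casein kinase 2, by 0.13 (lowest limma adjusted p of the list 0.580). Phosphatase subunits that can act on PER were higher in 5 of 6 (median 0.07), with 0.18 for Ppp1cb and 0.10 for Ppp2ca and -0.13 for Ppp1ca (lowest limma adjusted p 0.551). Partners of the PER and CRY complex were higher in 6 of 7 (median 0.05). The RNA-binding proteins Nono, Sfpq and Ddx5 differed by 0.10, 0.16 and 0.13 (lowest limma adjusted p 0.638).

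**Figure D3:**
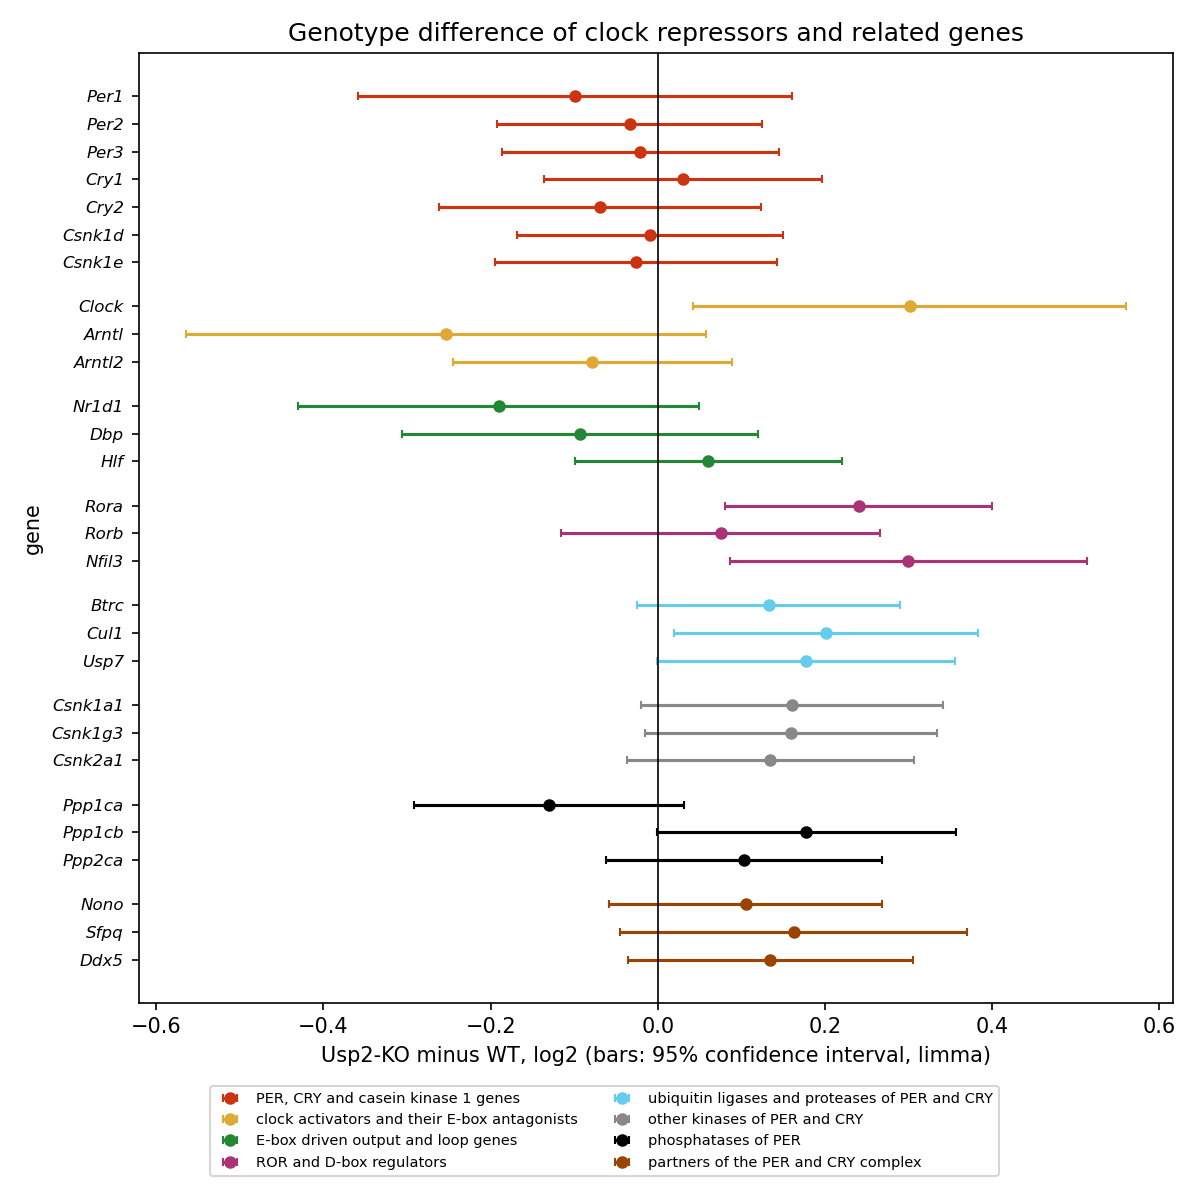
Usp2-KO minus WT on the log2 scale for the 7 genes, in red, and for the genes of smallest p in each related list, in other colours, with bars for the 95% confidence interval of the limma fit. All 7 red intervals include 0 and lie between -0.36 and 0.20, and Clock, Rora, Nfil3 and Cul1 have intervals above 0 that are not adjusted for the number of genes.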

How the data were processed

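The authors deposited log2 expression values made with RMA, per the submitters' processing notes. The software version, the genome build and any removal of rows before deposit are not given in the sources used here. Targets for an Affymetrix whole-transcript array were prepared from 300 ng of pooled RNA, per the labels' protocols. Of 28270 rows, 21780 carried exactly 1 gene symbol in the platform annotation, and the row of highest mean was kept for each of 19934 genes. No signal filter was applied, and all 7 members also passed filters above the median of all genes and at a mean log2 of at least 6. Identifiers of all 7 matched a GRCm38.p6 gene table. Usp2-KO minus WT was fitted over all genes with limma 3.58.1 in R 4.3.3 (lmFit, eBayes, 6.87 prior degrees of freedom) on genotype, with Benjamini-Hochberg adjustment and a threshold of 0.05, and tested on simulated data. The design text says that littermates were kept together between pools, so the pool number was run as a block. Across genes, pools sharing a number deviated from the means of their genotypes with a correlation of -0.121. The number of arrays limits the precision. Members and lists were chosen with earlier results of these data known. Besides the 7 members and Usp2, up to 3 genes of smallest p were named per list. Ciart, Nr1d2, Tef and Bhlhe40 were named after their values were seen. Alternatives were the block, an intensity trend, a robust prior, both filters, the mean of a gene's rows, repeated quantile normalization, centring on medians, a threshold of 0.10 and each pool left out. Figures were drawn with matplotlib 3.10.9.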

Additional observations from a re-analysis of the deposited data

How the results depend on the processing

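For the 7 clock repressor and casein kinase 1 genes, 0 passed under any of the 12 alternative fits or at an adjusted p under 0.10, and the lowest adjusted p was 0.647. Of their 84 alternative differences 6 changed sign, all by leaving out a pool. Many of the 84 could not change. The block, the intensity trend, the robust prior, both filters and the mean of a gene's rows leave the difference of a single-row gene as it was. Only repeated quantile normalization, centring on medians and leaving out a pool could move it. Over the 4 fits without a pool, the difference ran from -0.2835 to 0.0845 for Per1, from -0.0645 to 0.0225 for Per3, from -0.0125 to 0.0725 for Cry1, from -0.1465 to 0.0075 for Cry2, from -0.031 to 0.012 for Csnk1d and from -0.0835 to 0.0315 for Csnk1e. Per1, Per3 and Cry1 changed sign without WT pool 2, and Cry2, Csnk1d and Csnk1e without Usp2-KO pool 2. Of the other genes named from the lists, Dbp (-0.213 to 0.026), Rorb (-0.026 to 0.176), Ciart (-0.2325 to 0.1715), Nr1d2 (-0.0455 to 0.0675), Tef (-0.0005 to 0.0825) and Bhlhe40 (-0.066 to 0.054) changed sign over these fits, and Nr1d2 also with repeated quantile normalization (-0.00875). Without Usp2-KO pool 2, Cul1 was at 0.12, Csnk1a1 at 0.08, Csnk1g3 at 0.09, Csnk2a1 at 0.08, Ppp1cb at 0.10, Sfpq at 0.06 and Ddx5 at 0.09, and Usp7 was at 0.12 without WT pool 2. The count over all genes was 1, and 2 at a threshold of 0.10, 18 with an intensity trend, 7 with either filter on signal, and 1 to 2 when a pool was left out. With the littermate pools as a replicate block it was 153, in a fit with a prior of 90.6 degrees of freedom. The block changed no call of a gene named here. With the pools crossed, a setting chosen after seeing the data, the count was 1. The other rows of a member could not be tried, since each has a single row. The cause of these shifts was not tested.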
